A study of Homo sapiens with 12 samples.

Results

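The genes described here are 10 early response genes and ERK phosphatase or feedback genes: EGR1, EGR3, IER2, IER3, DUSP1, DUSP4, DUSP5, DUSP6, SPRY4 and PHLDA1. They were chosen by name, from among 21574 features, with TPM values and earlier comparisons of all 4 groups of these libraries known. Their differences between the groups are therefore given as a description, with standard errors. Whether a member passed the threshold of the fit over all features is given beside the share of all features that did, and supports nothing here. All 10 were listed in the table, and 9 passed the filter on low values that the model required. EGR3 did not pass it.

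The libraries come from MDA-231-LM2, a lung-tropic derivative of the human triple-negative breast cancer line MDA-MB-231. There were 4 groups of 3 libraries: cells labelled Ctrl, the same with IGF1, cells labelled TMEM216, and those with IGF1. TMEM216 is a tetraspan protein found at the base of the primary cilium, and IGF1 is a growth factor that activates the receptor kinase IGF1R. The labels do not give how the TMEM216 cells were made, whether they are 1 clone, or the dose and duration of IGF1. Nothing says that replicates came from separate cultures, so the errors below measure the spread between libraries, which may be technical. Each standard error rests on 1 spread per gene, shared by the 4 groups and drawn towards that of other features. It does not show how the spread differed between groups. For DUSP4, for example, the SD was 4.30 TPM in Ctrl and 27.5 TPM in TMEM216 libraries.

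Growth factor receptors signal through Ras, RAF and MEK to the kinase ERK, which phosphorylates the ternary complex factors that sit with serum response factor (SRF) at CArG boxes of early genes. EGR1, the IER genes and DUSP1 are transcribed within minutes of such a signal, and their messages are short-lived. The DUSP phosphatases and the Sprouty proteins are made in response to ERK activity and then restrain it, so their transcripts are commonly read as a record of pathway output.

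The TMEM216 transcript ran from 163 to 250 TPM in the 6 TMEM216 libraries and from 24.0 to 30.1 TPM in the 6 Ctrl libraries, so the labels and the transcript went together. TPM is transcript abundance per length, scaled to a fixed total per library, and the sequencing depth behind it is unknown. The MDA-MB-231 markers VIM, CD44, AXL, CAV1, MSN and KRT18 stood at 218 TPM or more in every library, and ESR1, PGR and CDH1 at 0.204 TPM or less. EPCAM and ERBB2, which were listed as low or absent in this type of cell, stood at 11.9 to 15.7 and 31.7 to 42.9 TPM. Among markers of leukocytes, endothelial cells, fibroblasts and adipocytes, ADIPOQ and CD3E were listed at 0 throughout, and the highest level of any was 3.94 TPM (CD14). Ribosomal protein genes took 16.9% of TPM in Ctrl+IGF1 replicate 3 and 14.5% in TMEM216 replicate 1, against 12.4% to 14.4% in the other 10 libraries. These 2 libraries had the lowest scores on the first principal component, and calls and signs of the TMEM216 and IGF1 differences that change without them are named below.

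Promoter sequences were available from RefSeq (GRCh38.p14) for 6 of the 10 genes, each 250 bases before and 50 after an annotated start. The first window listed for a gene was used, and any others were not examined. Those of SPRY4, DUSP6 and PHLDA1 lie wholly inside the GENCODE v29 span of the gene, downstream of its 5′ end, which for SPRY4 is at 142326455. The windows of EGR1, DUSP1 and SPRY4 are shown because the first 2 genes were the ones called lower in TMEM216 cells and SPRY4 went the other way. They run 5′ to 3′ on the gene's strand. Capitals mark matches to the CArG box and to the cyclic AMP response half-site CGTCA on either strand. The EGR1 window is chr5:138465229-138465528 on the plus strand, that of DUSP1 is chr5:172771146-172771445 on the minus strand, and that of SPRY4 is chr5:142324198-142324497 on the minus strand.
EGR1: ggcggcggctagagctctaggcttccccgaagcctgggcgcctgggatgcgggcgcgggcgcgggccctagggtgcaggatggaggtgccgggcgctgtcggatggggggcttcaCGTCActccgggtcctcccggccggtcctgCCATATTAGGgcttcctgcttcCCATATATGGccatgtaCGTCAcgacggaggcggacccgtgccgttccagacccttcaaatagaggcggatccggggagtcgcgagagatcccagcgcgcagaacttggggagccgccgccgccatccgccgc
DUSP1: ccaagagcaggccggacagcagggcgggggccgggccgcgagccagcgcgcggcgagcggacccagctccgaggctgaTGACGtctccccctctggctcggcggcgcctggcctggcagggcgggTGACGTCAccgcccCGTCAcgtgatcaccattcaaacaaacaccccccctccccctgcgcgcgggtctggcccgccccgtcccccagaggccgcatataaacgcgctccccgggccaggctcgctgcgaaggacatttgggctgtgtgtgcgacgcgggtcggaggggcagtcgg
SPRY4: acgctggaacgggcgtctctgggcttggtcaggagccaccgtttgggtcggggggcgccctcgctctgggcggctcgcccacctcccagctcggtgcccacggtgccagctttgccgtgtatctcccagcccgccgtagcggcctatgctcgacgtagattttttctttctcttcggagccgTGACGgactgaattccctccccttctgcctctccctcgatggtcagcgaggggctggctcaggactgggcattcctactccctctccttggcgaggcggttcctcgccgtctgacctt

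The EGR1 window held 2 CArG boxes, with their first bases at -105 and -83 from the start, and 2 half-sites at -135 and -66. Of 35116 RefSeq windows of this length, 1.29% held a CArG box and 0.0313% held 2 or more. The DUSP1 window held no CArG box but a full TGACGTCA element at -125, which 1.85% of windows hold, and 4 CGTCA half-sites, of which 2 lie inside that element. A CGTCA half-site on either strand was present in 24.6% of windows, among them those of EGR1, DUSP1, IER2 and SPRY4. The AP-1 motif TGANTCA and the EGR motifs GCGTGGGCG and GCGGGGGCG, searched on both strands, were in none of the 6 member windows, against 7.71%, 0.795% and 5.07% of all windows. These are matches of letters and say nothing of binding in these cells.

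The 9 fitted genes had few exons and short gene spans, but not short transcripts. By GENCODE v29 their principal transcripts had a median of 2 exons, against 9 over 12372 fitted protein-coding genes, and a median gene span of 6040 bases against 32872. Their median transcript length was 2934 bases against 3108, and their median 3′ UTR 1234 against 1050 bases. The AU-rich heptamer TATTTAT, a mark of unstable messages, occurred in the 3′ UTR of IER3 and DUSP4 (4 times each) and of DUSP1 and PHLDA1 (3 times each). It was absent from the other 5. At least 3 copies were found in 5.92% of all fitted protein-coding genes, a share not matched for 3′ UTR length. The 3′ UTRs of IER3 and DUSP1 had 737 and 672 bases, and those of DUSP4 and PHLDA1 had 3962 and 4672.

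EGR1, a zinc finger transcription factor, had 4 group levels that did not overlap. It stood at 44.8, 40.8 and 44.5 TPM in the Ctrl libraries and at 28.1, 32.1 and 29.1 TPM in Ctrl+IGF1. In TMEM216 cells the values were 21.3, 19.8 and 15.2 TPM, and with IGF1 11.4, 8.77 and 9.76 TPM. Every TMEM216 library was thus below every Ctrl library, and within each cell population every library with IGF1 was below every one without. The group means were 43.4 ± 2.18, 29.8 ± 2.07, 18.8 ± 3.20 and 9.98 ± 1.34 TPM (SD, n = 3 here and for each mean below).

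On the log2(TPM + 1) scale, which understates the change of low genes, EGR1 was lower in TMEM216 than in Ctrl cells by -1.18 (SE 0.13) without IGF1 and -1.49 (SE 0.13) with it. These were fitted with limma across 13071 features, and a feature is termed called where its Benjamini-Hochberg adjusted p over all of them was under 0.05. EGR1 was called in both comparisons and in all 21 alternative settings of each. Among these settings are fits without a library outside the comparison, in which the difference stays the same and only the spread is estimated anew. IGF1 went with a difference of -0.53 in Ctrl and -0.84 in TMEM216 cells (SE 0.13 each), and neither was called. The second of these was called without TMEM216 replicate 3, at -0.98, with a pseudocount of 0.1, at -0.90, and with a minimum TPM of 5, at an unchanged -0.84. The difference between the 2 IGF1 effects, equal to that between the 2 TMEM216 effects, was -0.31 (SE 0.18) and was not called.

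The other EGR factors were barely listed. EGR3 lay between 0.0914 and 0.358 TPM in the 12 libraries, under the 1 TPM that a feature needed in 3 libraries to be fitted, and EGR2 between 0.0979 and 0.726 TPM. EGR4 was listed at 0 in every library. The corepressors that bind EGR proteins were both present: NAB1 averaged 45.2 to 55.0 TPM and NAB2 25.1 to 26.0 TPM over the 4 groups, and neither was called in any comparison. Because TPM is per length, EGR1 can be set beside these genes directly: in Ctrl cells it stood above NAB2, at 25.7 TPM, and in TMEM216 cells with IGF1 below it, at 9.98 against 26.0 TPM.

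**Figure D1:**
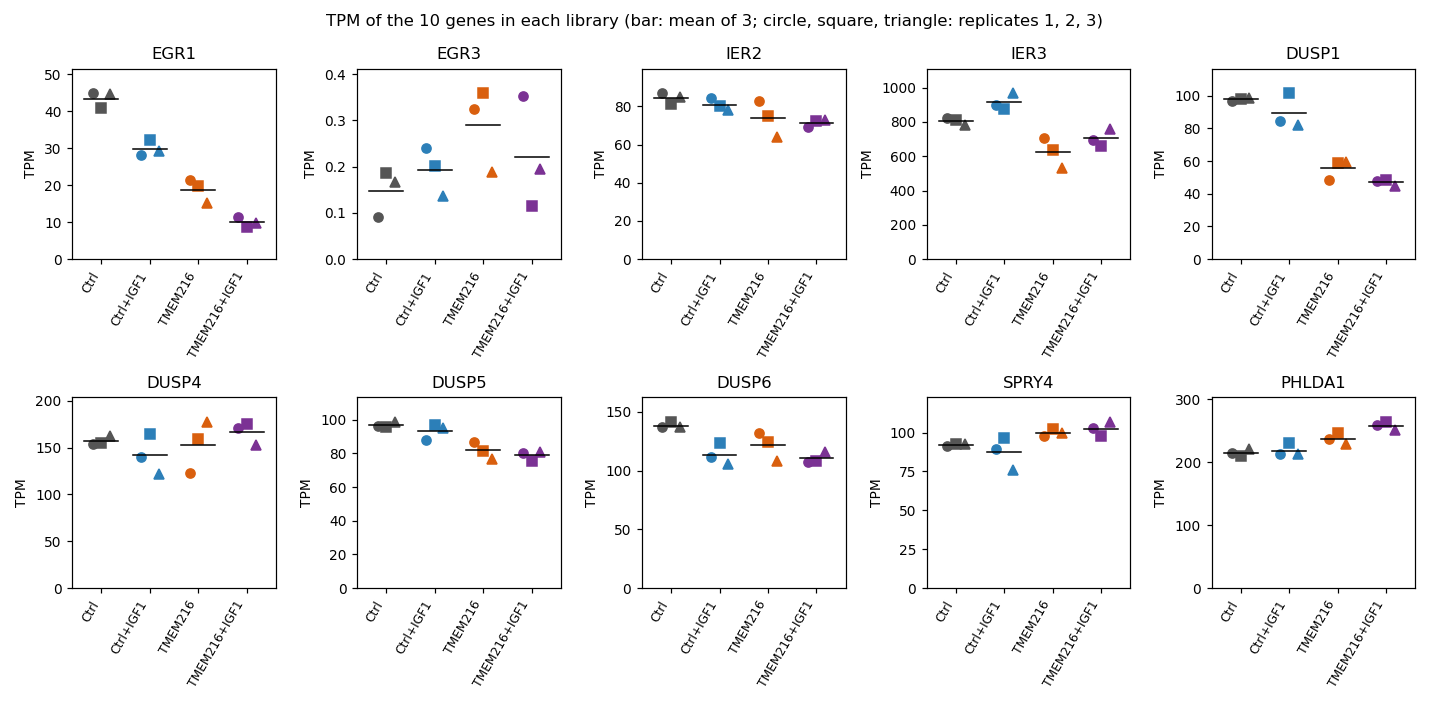
TPM of each of the 10 genes (y axis, from 0) in the 12 libraries, by group (x axis), with 1 point per library and a bar at the mean of 3. EGR1 steps down over the 4 groups without overlap, DUSP1 separates TMEM216 from Ctrl libraries, and DUSP4 overlaps in every group.

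IER2, a nuclear early response protein, moved little. Its Ctrl libraries were at 86.7, 81.3 and 84.7 TPM and its Ctrl+IGF1 libraries at 84.4, 80.0 and 78.0 TPM. The TMEM216 libraries were at 82.8, 75.2 and 63.8 TPM, and those with IGF1 at 69.0, 72.4 and 72.7 TPM. With IGF1 the TMEM216 libraries all lay below the Ctrl libraries; without it, TMEM216 replicate 1 lay among them. The TMEM216 differences were -0.19 (SE 0.088) and -0.18 (SE 0.088), and neither was called. The IGF1 difference in TMEM216 cells was -0.043 (SE 0.088) and changed sign to 0.042 without TMEM216 replicate 1.

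IER3, an early response gene whose product affects survival and ERK dephosphorylation, was the most abundant of the 10 per length. It stood at 820, 810 and 780 TPM in Ctrl libraries and at 898, 877 and 966 TPM in Ctrl+IGF1. In TMEM216 cells it was at 708, 638 and 529 TPM, and with IGF1 at 696, 661 and 758 TPM. All TMEM216 libraries lay below all Ctrl libraries. The fitted IGF1 difference of IER3 was 0.18 (SE 0.096) in Ctrl and in TMEM216 cells, and neither was called. That of PHLDA1 was also above 0 in both, at 0.021 and 0.12. The TMEM216 difference was -0.37 (SE 0.096) in each IGF1 condition and was not called. It was called without IGF1 when TMEM216 replicate 1 was left out, alone or with Ctrl+IGF1 replicate 3 (-0.47), and after quantile normalization (-0.42). With IGF1 it was called when TMEM216 replicate 1 or 3 was left out, at an unchanged -0.37.

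DUSP1 encodes a nuclear phosphatase of ERK, p38 and JNK. Its Ctrl libraries were at 96.8, 98.0 and 98.4 TPM and its Ctrl+IGF1 libraries at 84.4, 101 and 82.2 TPM. The TMEM216 libraries were at 48.4, 58.9 and 59.7 TPM, and those with IGF1 at 48.0, 48.7 and 44.9 TPM. The highest TMEM216 library was well below the lowest Ctrl library, whereas the IGF1 groups overlapped within each population.

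The DUSP1 mean was 97.7 ± 0.866 TPM (Ctrl) and 55.6 ± 6.31 TPM (TMEM216) without IGF1, a log2 difference of -0.81 (SE 0.098). With IGF1 the means were 89.3 ± 10.5 and 47.2 ± 2.00 TPM, a difference of -0.90 (SE 0.098). Both were called, also in all 21 alternative settings, in which they ranged from -0.86 to -0.71 and from -0.96 to -0.81. IGF1 went with a difference of -0.14 in Ctrl and -0.23 in TMEM216 cells (SE 0.098 each), neither of them called.

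DUSP5, a nuclear phosphatase that acts on ERK, showed the same order of groups at a smaller size. It was at 96.4, 95.7 and 98.4 TPM in Ctrl, 88.1, 96.9 and 95.1 TPM in Ctrl+IGF1, 86.6, 81.6 and 76.9 TPM in TMEM216, and 80.2, 75.6 and 81.0 TPM in TMEM216+IGF1. TMEM216 and Ctrl libraries did not overlap in either IGF1 condition. The differences of -0.24 (SE 0.069) without and -0.24 (SE 0.069) with IGF1 were not called in any of the settings tried.

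DUSP6, the cytoplasmic phosphatase of ERK, set the Ctrl libraries apart from the rest. They stood at 137, 141 and 137 TPM, above the Ctrl+IGF1 libraries at 112, 123 and 106 TPM. TMEM216 libraries were at 132, 125 and 108 TPM, and those with IGF1 at 107, 108 and 116 TPM. Only the Ctrl group stood clear of the other 3 groups, which overlapped one another. The largest of its fitted differences, -0.29 (SE 0.085) for IGF1 in Ctrl cells, was not called; in TMEM216 cells the IGF1 difference was -0.13 (SE 0.085). The TMEM216 difference was -0.19 (SE 0.085) without IGF1 and -0.039 (SE 0.085) with it, and the latter changed sign to 0.020 without Ctrl+IGF1 replicate 2.

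DUSP4, a nuclear ERK phosphatase and an inducible target of the pathway, had no group that stood apart. Its libraries were at 154, 155 and 162 TPM in Ctrl, 140, 164 and 122 TPM in Ctrl+IGF1, 123, 159 and 177 TPM in TMEM216 and 171, 176 and 153 TPM in TMEM216+IGF1. Its TMEM216 differences were -0.056 (SE 0.13) without IGF1, which became 0.092 without TMEM216 replicate 1, and 0.24 (SE 0.13) with IGF1. Its IGF1 difference in TMEM216 cells was 0.14 (SE 0.13) and -0.012 without TMEM216 replicate 1. The libraries with the lowest DUSP4, Ctrl+IGF1 replicate 3 and TMEM216 replicate 1, were those with the highest share of ribosomal protein transcripts.

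SPRY4, a Sprouty protein that restrains Ras to ERK signalling, was higher in TMEM216 cells, if by little. Its Ctrl libraries were at 91.1, 92.7 and 92.7 TPM and its Ctrl+IGF1 libraries at 89.7, 96.3 and 76.1 TPM. The TMEM216 libraries were at 97.6, 102 and 99.8 TPM, and those with IGF1 at 103, 97.8 and 107 TPM. No TMEM216 library was as low as any Ctrl library. The differences were 0.12 (SE 0.083) without and 0.23 (SE 0.083) with IGF1, the latter 0.14 without Ctrl+IGF1 replicate 3, and neither was called.

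PHLDA1, a pleckstrin homology-like domain protein induced by ERK signalling, was also higher in TMEM216 cells. It stood at 215, 209 and 221 TPM in Ctrl, 213, 230 and 213 TPM in Ctrl+IGF1, 237, 246 and 228 TPM in TMEM216 and 259, 263 and 251 TPM in TMEM216+IGF1. TMEM216 libraries lay above Ctrl libraries without IGF1, by 0.14 (SE 0.061), and with IGF1, by 0.24 (SE 0.061). The TMEM216+IGF1 libraries also lay above the TMEM216 libraries without overlap, by 0.12 (SE 0.061). The difference with IGF1 was not called, but was called without Ctrl+IGF1 replicate 2 (0.28) and with no filter on low values (0.24).

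**Figure D2:**
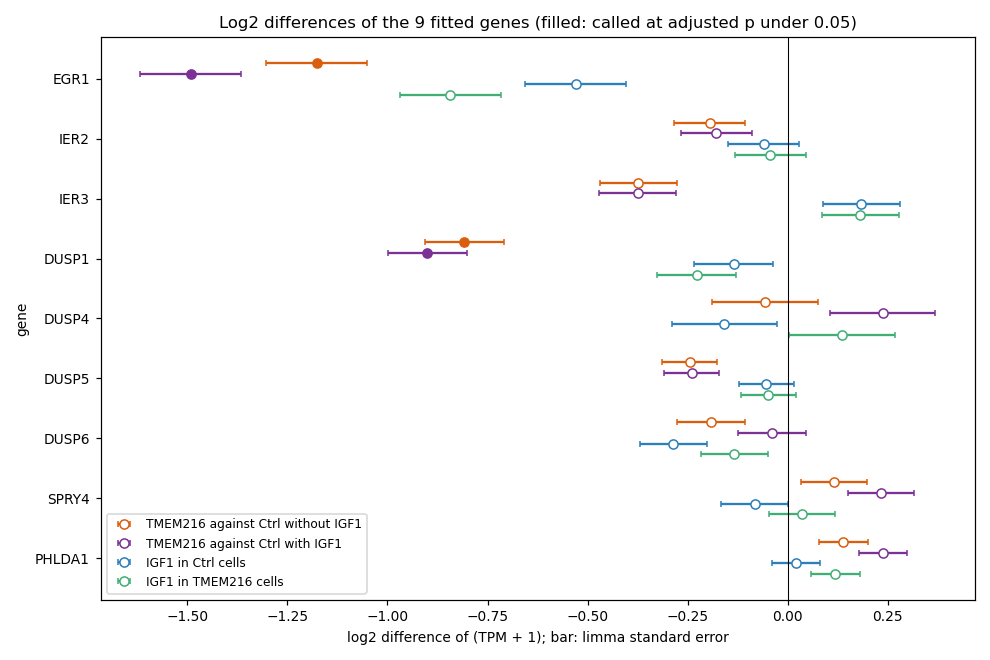
Log2 differences of the 9 fitted genes (x axis, log2 of TPM + 1) with limma's standard error as bars, by gene (y axis), for 4 comparisons; filled points were called. EGR1 and DUSP1 lie to the left of the other genes in both TMEM216 comparisons, and SPRY4 and PHLDA1 lie to the right of 0 in both.

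Counted together, 2 of the 9 fitted members were called in the TMEM216 comparison without IGF1, both lower, where 1.09% of all features were called. With IGF1 the count was again 2, EGR1 and DUSP1, against 1.61% of all features. In 7 of the 9 the TMEM216 and Ctrl libraries did not overlap without IGF1, against 21.8% of all features, and in 7 of the 9 with IGF1, against 19.7%. Adding EGR3, which could not be fitted, 8 of 10 did not overlap without IGF1, 3 of them higher and 5 lower; EGR3 itself parted only by a lowest TMEM216 library of 0.188 over a highest Ctrl library of 0.187 TPM. The members were listed with these comparisons known, so nothing is read from these shares.

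The median log2 difference of the 9 was -0.19 without and -0.18 with IGF1, beside -0.048 and 0.048 over all features. The median hides the split among them: with IGF1, 6 had a fitted value below 0 and 3, DUSP4, SPRY4 and PHLDA1, above. In the 2 TMEM216 comparisons the Ctrl libraries differ, as do the TMEM216 libraries, so each has its own samples. EGR1 ranked 50th and 37th of 13071 by the size of its difference, and DUSP1 136th and 138th.

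**Figure D3:**
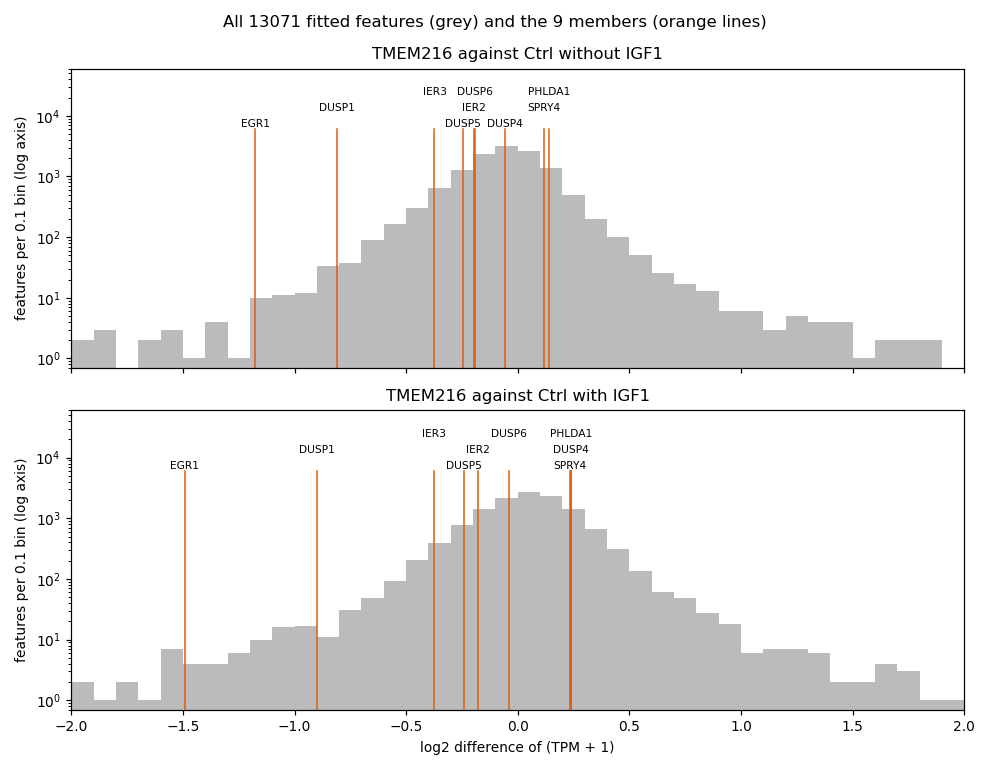
Number of features (y axis, log scale) per bin of 0.1 in the log2 difference between TMEM216 and Ctrl cells (x axis), without IGF1 above and with IGF1 below; orange lines mark the 9 fitted members. EGR1 and DUSP1 lie in the left tail and the other 7 within the bulk; 12 and 11 features beyond 2 on either side are not drawn.

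Few features were called between libraries with and without IGF1. In Ctrl cells limma called 4 of 13071 features (0.0306%) and none of the 9 members. An unadjusted p under 0.05 was given to 2 of the 9 and to 900 of all features. In TMEM216 cells limma called 2 features (0.0153%) and none of the members, with 2 members and 624 of all features under 0.05 unadjusted. The interaction called 2 features (0.0153%), again none of the members. No member was under 0.05 unadjusted there, against 703 of all features. Nothing is read from these counts, as the members were listed with the comparisons known. Groups with and without IGF1 did not overlap in 3 of 9 members in Ctrl cells (EGR1, IER3 and DUSP6), against 14.6% of features, and in 2 of 9 in TMEM216 cells (EGR1 and PHLDA1), against 10.2%. The highest log2 IGF1 difference of a member was that of IER3, at 0.184 in Ctrl and 0.182 in TMEM216 cells. The median of the members was -0.082 in Ctrl and -0.043 in TMEM216 cells, beside -0.088 and 0.018 over all features.

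The sign of 3 IGF1 differences in Ctrl cells depended on the scaling of the libraries. IER2 and DUSP5 stood at -0.060 and -0.053 as deposited and at 0.030 and 0.036 after median-of-ratios scaling, and were also above 0 after quantile normalization. SPRY4, at -0.082, was above 0 under median-of-ratios scaling and at 0.013 without Ctrl+IGF1 replicate 3. For the interaction, median-of-ratios scaling moved the median of all features from 0.11 to 0.0040, and the EGR1 value from -0.31 to -0.42. The IGF1 comparison in Ctrl cells shares its Ctrl libraries with the TMEM216 comparison without IGF1, and that in TMEM216 cells shares its TMEM216 libraries with it.

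The members varied together in part. Over the 12 libraries EGR1 correlated with DUSP5 (Pearson r = 0.93, Spearman rho = 0.94) and DUSP1 (r = 0.92, rho = 0.85) and inversely with PHLDA1 (r = -0.87, rho = -0.78). With the group means removed, EGR1 and DUSP5 kept an r of 0.82 while EGR1 and DUSP1 had -0.19, and EGR1 and PHLDA1 had 0.53. DUSP1 and DUSP4, in contrast, had r = -0.089 over the libraries and 0.95 within groups. These are descriptions of 12 libraries in 4 groups that share 1 scaling to a fixed total.

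The within-group variation of some members ran with the makeup of the libraries and that of others did not. Within groups, the share of TPM in ribosomal protein genes correlated with SPRY4 at r = -0.89, with DUSP1 at -0.82 and with DUSP4 at -0.82, but with EGR1 at 0.0013, DUSP5 at 0.14 and IER2 at 0.15. The r was 0.52 for IER3, -0.56 for PHLDA1 and -0.31 for DUSP6. Ctrl+IGF1 replicate 3 had the highest share, at 16.9%, and these r were not computed without it. By rank over the 12 libraries, with group means kept, the relation was weaker for SPRY4 and DUSP1 than for DUSP4. Spearman's rho with the share was -0.31 for SPRY4, -0.36 for DUSP1 and -0.71 for DUSP4. Over the 12 libraries DUSP4 also followed the summed level of 10 heat shock genes, which ran from 4760 to 7014 TPM (r = 0.94). The part of library makeup in the values of DUSP4 and SPRY4 was not tested. Without Ctrl+IGF1 replicate 3 and TMEM216 replicate 1, the TMEM216 differences of DUSP1 were -0.71 and -0.96 and those of EGR1 -1.27 and -1.51, and all 4 were still called.

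**Figure D4:**
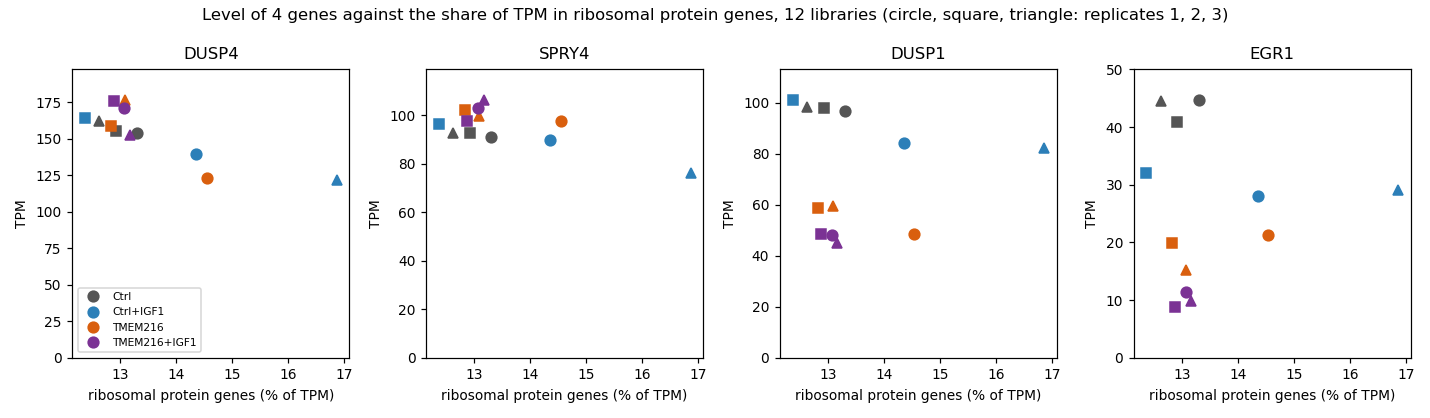
TPM of DUSP4, SPRY4, DUSP1 and EGR1 (y axes, from 0) against the percentage of TPM in ribosomal protein genes (x axis), with 1 point per library, coloured by group. DUSP4 is lowest in the libraries with shares of 16.9% and 14.5% and SPRY4 in the one with 16.9%, while EGR1 parts by group.

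Genes with the profile most like that of EGR1 were sought among 10297 non-member genes with a mean of at least 5 TPM. The 5 closest over the 12 libraries were EDN1 (Pearson r = 0.99, Spearman rho = 0.95), ANKRD1 (r = 0.98, rho = 0.97), ASNS (r = 0.97, rho = 0.95), ADAMTSL4 (r = 0.96, rho = 0.94) and FCGRT (r = 0.95, rho = 0.98). EDN1, the endothelin 1 precursor, had the same order of groups, with means of 60.5, 45.6, 29.3 and 20.1 TPM. ASNS, asparagine synthetase, had means of 110, 87.1, 56.8 and 43.7 TPM in the same order. Within groups the r with EGR1 was 0.74 for EDN1 and 0.25 for ASNS. For DUSP6 the closest were PCMTD2 (r = 0.92, rho = 0.92), AHRR (r = 0.90, rho = 0.90), ABCD4 (r = 0.90, rho = 0.89), BRD8 (r = 0.89, rho = 0.92) and PAPSS1 (r = 0.89, rho = 0.80).

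The other gene lists below were also chosen with earlier results of these data known. Their counts and p-values are a description and support nothing here. Of 38 other early response genes, 33 were fitted and 4 were called without IGF1, where 1.09% of all features were called. All 4 were lower in TMEM216 cells: FOSB, FOS, KLF4 and MAFF. FOSB, an AP-1 subunit, fell from a mean of 8.70 to 1.60 TPM, which was -1.90 on the log2 scale (SE 0.16, limma adjusted p = 8.72e-05). FOS, its relative, fell from 103 to 64.3 TPM, or -0.68 (SE 0.11, adjusted p = 0.0105). KLF4, a zinc finger factor, fell by 0.66 and MAFF, a small MAF protein, by 0.39 on the log2 scale. The median of the 33 was -0.23, beside -0.048 over all features. FOSB and MAFF overlap ERCC1 and PLA2G6 on the opposite strand, and no source used here says whether counting used strand.

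With IGF1, 4 of these 33 genes were called lower and 1 higher, where 1.61% of all features were called. The median of the 33 was -0.037, beside 0.048 over all features. FOS went from 65.5 to 11.0 TPM, a log2 difference of -2.47 (SE 0.11, limma adjusted p = 3.63e-07), and FOSB from 3.20 to 0.806 TPM (-1.21, SE 0.16, adjusted p = 0.00255). ATF3, a stress-induced factor, fell by 0.79 and JUNB, another AP-1 subunit, fell by 0.53 on the log2 scale. The gene that rose, PLAUR, the urokinase receptor, went from 309 to 395 TPM (log2 0.35); it was named after its value was seen. JUNB overlaps HOOK2 on the opposite strand. With IGF1 FOS also fell within TMEM216 cells, from 64.3 to 11.0 TPM, a log2 difference of -2.43 (SE 0.11, limma adjusted p = 5.24e-07), and its interaction was called (-1.79, SE 0.15, adjusted p = 9.65e-04). In Ctrl cells FOSB fell with IGF1 from 8.70 to 3.20 TPM (-1.22, SE 0.16, adjusted p = 0.0386).

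Several of these calls were lost when a library was omitted, while the log2 differences kept their sign. The value nearest 0 over all settings is given in parentheses. Without IGF1, the FOS call did not survive the omission of a single Ctrl library, whichever it was, or of TMEM216 replicate 2 (nearest 0 at -0.60), nor did that of KLF4 survive omitting a Ctrl library, Ctrl+IGF1 replicate 1, TMEM216 replicate 1 or 2 or TMEM216+IGF1 replicate 1 (-0.54), and that of MAFF was lost in those fits and also without TMEM216+IGF1 replicate 2 or 3 (-0.34). With IGF1, ATF3 was not called without replicate 1 of Ctrl+IGF1 or without replicate 1 or 2 of TMEM216+IGF1 (-0.69). JUNB was not called without replicate 1 or 3 of Ctrl+IGF1, or when a TMEM216+IGF1 library was omitted, whichever it was (-0.48). The PLAUR call was lost in the same fits as that of JUNB and also without Ctrl replicate 1 or 3, under median-of-ratios scaling, with no mean-variance trend and with both libraries of high ribosomal share omitted, so that it held in 9 of 21 settings (0.30). Fitting only the 6 libraries compared ended the calls of FOS, KLF4 and MAFF without IGF1 and of FOSB, ATF3, JUNB, PLAUR, TAGLN and TAGLN2 with IGF1. A replicate block ended those of MAFF, JUNB, PLAUR and TAGLN. MAFF also lost its call with no mean-variance trend and held it in 9 of 21 settings. The call of FOSB for IGF1 in Ctrl cells held in 4 of 21 settings and, nearest 0 at -1.11, was lost without any library other than Ctrl+IGF1 replicate 2 and TMEM216 replicate 1. FOS between TMEM216 and Ctrl cells with IGF1 kept its call in all 21.

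The other genes listed as ERK feedback were SPRY1, SPRY2, SPRY3, SPRED1, SPRED2, SPRED3, DUSP2, DUSP7, DUSP8, DUSP9, DUSP10, DUSP16, ERRFI1, RASA1 and NF1. Whether each responds to ERK or acts on it in these cells was not tested. Of these 15 genes, 12 were fitted. None was called without IGF1, where limma gave an unadjusted p under 0.05 to 1728 of all 13071 features and to 1 of the 12. That gene was ERRFI1, a feedback inhibitor of EGFR, at 180 and 150 TPM (log2 -0.26, adjusted p = 0.189). With IGF1 1 was called: SPRY1, a Sprouty relative of SPRY4, rose from 40.1 ± 4.47 to 66.4 ± 2.37 TPM, by 0.72 on the log2 scale (SE 0.11, limma adjusted p = 0.00566), in all 21 settings. Without IGF1 the SPRY1 means were 50.7 TPM (Ctrl) and 58.3 TPM (TMEM216), and its interaction of 0.53 (SE 0.15) was not called. DUSP7, another cytoplasmic ERK phosphatase, averaged 43.0 to 44.1 TPM over the groups and was not called.

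The remaining 6 genes of a 10-gene MAPK pathway activity score, to which DUSP4, DUSP6, SPRY4 and PHLDA1 also belong, gave no call in any comparison. SPRY2 is among these 6 and also among the other feedback genes above, so the lists overlap. Without IGF1 limma gave 1 of the 6 at an unadjusted p under 0.05, ETV4, an ETS factor, at 107 and 84.5 TPM (log2 -0.34, adjusted p = 0.128). None of the 24 fitted components of the Ras to ERK cascade, from EGFR to the ELK factors, was called in any comparison. In the TMEM216 comparisons without and with IGF1, 4 and 1 of them were under 0.05 unadjusted, beside 1728 and 2070 of all 13071 features. The median of the 24 was -0.12 without and 0.098 with IGF1, beside -0.048 and 0.048 over all features. Their smallest p without IGF1 was that of MKNK2, an ERK-activated kinase (log2 -0.34, adjusted p = 0.0769).

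SRF also drives actin genes through a route that does not use ERK, and 10 of 11 such genes were fitted. None was called without IGF1, where 4 of the 10 and 1728 of all 13071 features had an unadjusted p under 0.05 by limma. The 4 were led by TAGLN2 (log2 0.25, adjusted p = 0.0605). With IGF1 TAGLN2, an actin-binding protein, rose from 308 to 398 TPM (log2 0.37, adjusted p = 0.00651) and TAGLN, its relative, fell from 12.9 to 8.16 TPM (log2 -0.62, adjusted p = 0.0460). TAGLN overlaps PCSK7 on the opposite strand and held its call in 8 of 21 settings. It lost it without any of the Ctrl or Ctrl+IGF1 libraries, TMEM216 replicate 2 or TMEM216+IGF1 replicate 1 or 2, nearest 0 at -0.48. The 10 heat shock genes gave no call in any comparison, with medians of 0.053 without and 0.18 with IGF1 between TMEM216 and Ctrl cells. Over all features these medians were -0.048 and 0.048.

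In the IGF1 comparisons none of the last 5 lists, from the other feedback genes to the heat shock genes, gave a call, and the gene with the smallest p in each is named here with its log2 difference. Over all 13071 features, limma gave an unadjusted p under 0.05 for 900 in Ctrl and 624 in TMEM216 cells. In Ctrl cells it gave such a p for 1 of the 12 other feedback genes, 1 of the 6 score genes, 2 of the 24 cascade genes, none of the 10 actin genes and 1 of the 10 heat shock genes. The leading ones were SPRY1 (-0.33), CCND1, cyclin D1 (-0.24), RPS6KA2, an ERK-activated kinase (-0.52), ACTA2, smooth muscle actin (-0.36), and HSPE1, a mitochondrial chaperonin subunit (0.28). In TMEM216 cells the counts were 0, 1, 3, 2 and 1, led by SPRY2 (0.19), ETV4 (0.21), MKNK2 (0.25), TAGLN (-0.38) and DNAJB1, a cytosolic co-chaperone (0.19). None of these genes passed the threshold, and their adjusted p was 0.673 or more. In the TMEM216 comparison with IGF1 the leading genes of the lists without a call were EPHA4, an ephrin receptor (0.30), ELK4, a ternary complex factor (0.25), and DNAJB1 (0.26), and HSPE1 led the heat shock genes without IGF1 (0.33). In bulk RNA, fewer cells with a transcript and less of it per cell cannot be told apart.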

How the data were processed

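RNA-seq was measured in 12 libraries, 3 in each of 4 groups, and groups and replicate numbers came from the labels. The deposited values are TPM per gene, made by the authors; HISAT2, StringTie and RSEM are named in the submitters' processing notes without versions, and no source used here gives the genome build. No counts were used, so the depth behind each value could not be given.

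Features with at least 1 TPM in at least 3 libraries (13071 of 21574) were analysed as log2(TPM + 1) with limma 3.58.1 in R 4.3.3 with the R package data.table (version 1.17.8), with the 4 groups fitted together, moderated variances with a mean-variance trend, two-sided tests and Benjamini-Hochberg adjustment over all 13071 at 0.05. The fit was tested on simulated data. A first test, a single draw with each feature's own unsmoothed spread, gave more false calls than the limit set for it. Averaged over 10 draws, the share of false calls was close to the nominal one with moderated spreads and slightly higher with unsmoothed ones. Each feature was drawn independently, with no variation shared by the features of a library. The simulation therefore cannot tell how such shared variation affects the calls. Figures used matplotlib 3.10.9 in Python 3.11.15. Transcript features came from GENCODE v29 and promoter sequences from RefSeq GRCh38.p14.

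The members and gene lists were chosen with earlier results of these data known, and the motifs with part of the promoter sequences seen. Named from the other lists were up to 4 genes per comparison with the smallest p among those called, or the 1 with the smallest p where none was; NAB1, NAB2, EGR2, EGR4, DUSP7 and PLAUR fall outside that rule and were chosen after their values were seen. The closest profiles were ranked by Pearson's r on log2(TPM + 1). Alternatives were the pseudocount, the filter, 2 other scalings, no trend, fits of only the libraries compared, a replicate block and leaving out each library. Leaving out Ctrl+IGF1 replicate 3 and TMEM216 replicate 1 together was chosen after seeing the data.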

Additional observations from a re-analysis of the deposited data

How the results depend on the processing

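EGR1 and DUSP1 were lower and called between TMEM216 and Ctrl cells, without and with IGF1, in all 21 alternatives of each comparison. Some of these leave out a library outside the comparison, which cannot move the difference. The number of members called was 2 to 3 in both comparisons. For IGF1 in TMEM216 cells it went from 0 to 1, EGR1, with a pseudocount of 0.1, with a minimum TPM of 5 and without TMEM216 replicate 3, so that leaving out single libraries gave 0 to 1. With a replicate block 2, 2, 0, 0 and 0 members were called in the 5 comparisons, in the order of the report, and 77, 140, 1, 1 and 1 features; same-numbered libraries had correlations of -0.29 to 0.17, so the numbers were not taken as pairs.

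Counts over all features moved more. Leaving out single libraries gave 43 to 273 features without IGF1, against 143, and 84 to 462 with IGF1, against 211; the first range ran from the fit omitting Ctrl replicate 2 to that omitting Ctrl+IGF1 replicate 3, the second from TMEM216+IGF1 replicate 1 to Ctrl+IGF1 replicate 2. Fitting only the 6 libraries compared gave 49 and 49. A sign change occurred in 37 of 936 member values, in 13 results whose log2 difference as reported was at most 0.14 in size. Neither depth nor the preparation of replicates is known, which limits what the small differences can show.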
